A study of Mus musculus with 3 samples.

Results

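The cornea of untreated Aire knockout mice was compared with that of wild-type mice, 2 of the 3 samples of the series. Members of the comparison were all genes counted in the wild-type library (WT) and the untreated knockout library (KO), 32285 in each list. RNA was measured in nuclei from snap-frozen whole corneas with the droplet 3' assay of 10x Genomics. Each group was 1 library pooled from 5 mice that were 7 weeks old, and neither group had received drops. The labels name the genotypes WT and KO without an allele or a strain. Age and treatment time are those of the labels, whereas the series text states 6 weeks of age and treatment day 7. A library of knockout corneas given PBS, for 14 days by its label (KO_PBS), served for values beside the comparison. Since each group is 1 library, no difference could be checked on replicates and no test was made. Every interval given is an exact 95% Poisson or binomial interval that covers counting error only.

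Aire is a transcriptional regulator of the thymus that lets medullary epithelial cells express proteins of other tissues, so that T cells reacting with them are removed or become regulatory. Mice without it develop autoimmune disease of several organs, including the tear glands and the eye surface. The cornea is covered by a stratified epithelium marked by the keratin Krt12. Below it lies a stroma of keratocytes, which make collagen and the proteoglycans keratocan and lumican, and an inner endothelium that pumps fluid. It normally holds few leukocytes and no blood vessels, and it is densely supplied by sensory nerves.

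The WT library held 256852883 UMIs (unique molecular identifiers, each standing for 1 captured transcript) in 96587 barcodes, and the KO library 352627863 in 107031. Median UMIs per barcode were 2261 and 2980. The libraries shared 2833 barcodes, 2.93% of those in WT and 2.65% of those in KO. Mitochondrial genes took 0.814% of UMIs in WT and 0.797% in KO, and ribosomal protein genes 17.9% and 13.7%. Corneal markers were present in both libraries: Krt12 at 26026 and 13743 CPM (UMIs per 1000000 UMIs of the library), keratocan (Kera) at 48.2 and 155 CPM, and the endothelial transporter Slc4a11 at 43.1 and 44.0 CPM. Sums were taken over all barcodes, so they do not say which cells held a transcript, and fewer cells of a type cannot be told apart from less RNA per cell.

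Aire (ENSMUSG00000000731, chr10:78030022-78043610 on the minus strand of GRCm38) was near the limit of detection in both libraries. It had 15 UMIs in WT, 0.0584 CPM (interval 0.0327 to 0.0963), and 27 in KO, 0.0766 CPM (0.0505 to 0.111). The intervals overlapped, and 68 UMIs were counted in KO_PBS, so the targeted gene gave no check of the labels. Directions are therefore those between the libraries labelled WT and KO. Its neighbour Dnmt3l, a cofactor of DNA methyltransferases, overlaps the 5' end of Aire on the other strand. Dnmt3l had 1218 UMIs in WT and 806 in KO, a log2 ratio of -1.29 relative to the median gene. Trpm2, a calcium channel of leukocytes and other cells, lies on the other side with 2 genes between them and had 49 UMIs in WT and 1646 in KO. The other neighbours with enough UMIs were Lrrc3, Cfap410, Pfkl, Icosl, Gatd3a, Pwp2 and Trappc10, and their log2 ratios lay between -0.69 and 0.50.

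Of the listed genes, 21335 had at least 50 UMIs over both libraries. Ratios were taken of CPM in KO over CPM in WT, with counts below 3 set to 3, and centred on the median gene, which was 0.23 higher in KO on the log2 scale. In what follows a log2 ratio is relative to that median, and a gene is called higher or lower when it lay at least 2-fold above or below it. By this rule of size 3231 genes were higher in KO, 15.1% of those with enough UMIs, and 2805 were lower, 13.1%. Counts of list members called below are to be read beside these shares. The UMI minimum fixed 445 of the higher calls, of genes with at most 11 UMIs in WT. It also fixed 466 of the lower calls, of genes with at most 22 in KO. Such genes reach 50 UMIs only with a count in the other library that already gives the call. Large differences were mostly on the higher side: 1469 genes were at least 4-fold higher and 602 at least 4-fold lower, and 570 against 15 were at least 16-fold apart. Among called genes 53.5% were higher. That share was 69.7% without centring and 63.7% with the TMM factor in place of the median, so the balance of higher and lower genes depended on the scaling.

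**Figure D1:**
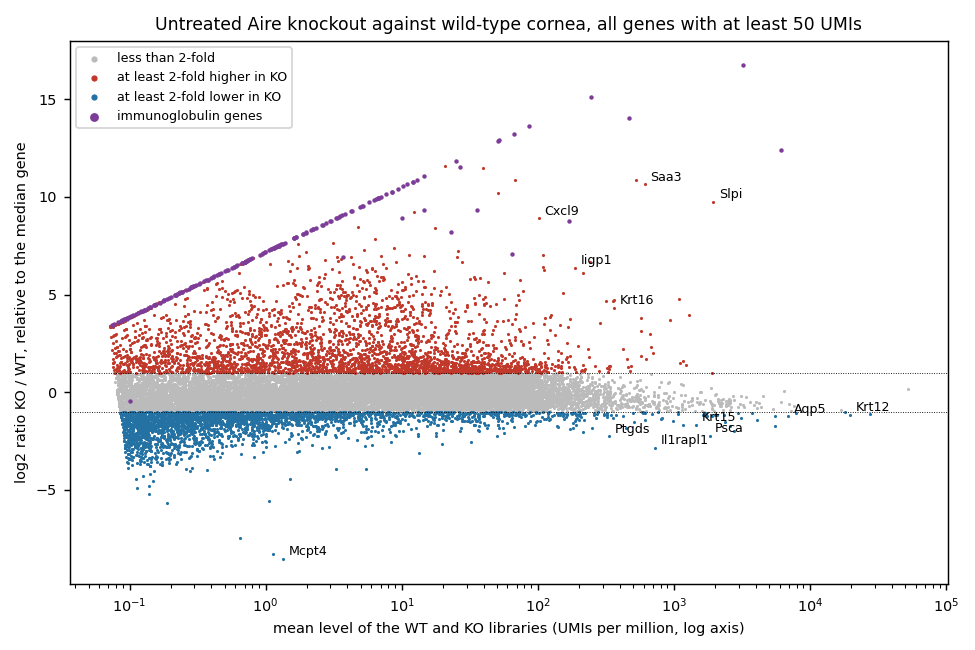
Each point is 1 gene with at least 50 UMIs: the mean level of the WT and KO libraries in CPM (log axis) against the log2 ratio KO over WT relative to the median gene. Genes at least 2-fold higher in KO are red and at least 2-fold lower blue (2805). Immunoglobulin genes are purple, and their straight edge holds genes with a WT count set to 3. Of the 3231 higher genes, 179 are immunoglobulin genes and so purple.

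Immunoglobulin genes, which encode antibodies, stood farthest above WT. They took 0.0004% of all UMIs in WT and 2.21% in KO, and KO_PBS had 0.183%. Enough UMIs were counted for 180 such genes, taken by symbol. Of these, 179 were higher and none was lower, but 171 of the 180 had at most 11 UMIs in WT. A gene with so few can reach 50 UMIs only with a KO count that already makes it higher, so this count was fixed by the minimum and is no measure of the family. Igkc, the kappa light chain constant region, had 494 UMIs in WT and 4358215 in KO. Ighg1, the IgG1 heavy chain, went from 13 to 2283577 UMIs and Ighg2b from 12 to 328553. For Ighg2c WT had 1 UMI, KO 174773 and KO_PBS 427. Igha, the heavy chain of the IgA found in tears, had the smallest ratio of the 5 most abundant of these genes, with 0.67 CPM in WT and 342 in KO, a log2 ratio of 8.76. The variable-segment families Igkv (median 7.52 over 80 genes) and Ighv (6.03 over 80) rest largely on genes without a UMI in WT, for which the ratio is a lower bound. Reads of such near-identical genes can be split between copies, so single members are uncertain.

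Genes of antibody-secreting cells were higher as well, 14 of 16 beside 15.1% of all genes, with a median log2 ratio of 3.28. Jchain, which joins IgA and IgM into polymers, had 0.487 CPM in WT and reached 1058 in KO. Mzb1, an endoplasmic reticulum protein of B and plasma cells, had 16 UMIs in WT and 48175 in KO. Their levels in KO_PBS were 66.7 and 7.89 CPM. The surface proteoglycan Sdc1, a plasma cell marker that corneal epithelium also makes, was at 518 and 521 CPM. Of 16 B cell markers, 13 were higher (median 3.87). Cd79a, a signalling chain of the B cell receptor, had 23 UMIs in WT and 12418 in KO. Ms4a1, the gene of CD20, differed little, at 13.7 and 19.7 CPM.

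The share of barcodes with a UMI differed widely between genes. Igkc was seen in 0.274% of WT barcodes (exact binomial interval 0.242 to 0.309) and 99.98% of KO barcodes (99.97 to 99.99). Jchain was seen in 83.9% of KO barcodes (83.7 to 84.1) and 0.0901% of those in WT. For the antiprotease Slpi the shares were 1.00% and 97.2%, and for the T cell receptor chain Cd3e 0.0973% and 5.20%. Epithelial Krt12 had a UMI in 100% of barcodes of either library. No barcode was assigned to a cell type, and the part of free RNA in these shares was not tested.

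Interferons induce many genes by way of JAK kinases and STAT factors. Interferon gamma, made by T and NK cells, acts mainly through GAS elements, and type I interferons mainly through the interferon-stimulated response element (ISRE). Genes listed for either response were higher in KO, and which interferon acted was not tested. Promoters of the 4 called genes with the highest ratio among 5 interferon-related lists that hold either element are shown, 250 bases up to the gene start on the gene's strand (RefSeq, GRCm38.p6). Capitals mark GAS (TTCNNNGAA) and the ISRE core (GAAANNGAA), searched on both strands. They lie at chr10:118440796-118441045 (plus strand), chr11:48992247-48992496 (minus), chr11:49064213-49064462 (minus) and chr3:142496684-142496933 (plus).
Ifng: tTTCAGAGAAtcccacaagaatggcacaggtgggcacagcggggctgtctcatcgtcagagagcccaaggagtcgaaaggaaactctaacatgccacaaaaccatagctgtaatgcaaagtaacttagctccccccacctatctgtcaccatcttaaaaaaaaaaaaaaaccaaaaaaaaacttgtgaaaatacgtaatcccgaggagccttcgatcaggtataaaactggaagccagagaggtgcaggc
Tgtp1: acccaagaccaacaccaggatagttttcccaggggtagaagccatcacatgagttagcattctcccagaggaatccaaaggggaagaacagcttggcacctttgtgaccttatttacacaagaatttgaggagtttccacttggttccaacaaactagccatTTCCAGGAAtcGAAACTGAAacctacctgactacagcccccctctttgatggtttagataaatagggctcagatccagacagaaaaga
Tgtp2: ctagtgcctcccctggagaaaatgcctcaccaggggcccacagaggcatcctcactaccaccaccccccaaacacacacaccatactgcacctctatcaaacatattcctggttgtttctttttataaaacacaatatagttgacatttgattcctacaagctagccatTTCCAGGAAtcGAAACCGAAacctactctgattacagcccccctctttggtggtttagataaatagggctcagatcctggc
Gbp5: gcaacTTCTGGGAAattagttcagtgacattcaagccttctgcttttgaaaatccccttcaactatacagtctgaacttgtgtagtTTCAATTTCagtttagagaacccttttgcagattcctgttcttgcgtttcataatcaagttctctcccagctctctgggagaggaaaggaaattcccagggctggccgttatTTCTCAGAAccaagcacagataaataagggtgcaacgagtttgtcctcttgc

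The Ifng promoter holds a GAS match at 249 to 241 bases before the start and no ISRE core. Tgtp1 and Tgtp2, near-identical T cell GTPase genes, carry both elements close together, GAS at 88 to 80 and the ISRE core at 77 to 69 bases before the start in Tgtp1, and at 81 to 73 and 70 to 62 in Tgtp2. Gbp5 has GAS at 245 to 237 and 52 to 44 and an ISRE core, on the minus strand, at 164 to 156. None of the printed matches overlap. A match is a description of letters and not a shown binding site. Of 14942 genes with enough UMIs and a promoter in the table, 14.4% held GAS or the ISRE core. The share was 19.4% of genes called higher, 14.6% of genes called lower and 13.4% of the rest. It was 37 of 76 genes (48.7%) in the interferon-related lists together, 10 of 11 (90.9%) among guanylate-binding and immunity-related GTPases, 12 of 21 (57.1%) among type I response genes and 2 of 9 (22.2%) among MHC class II genes. Taken singly, the ISRE core was in 10 and GAS in 6 of the 11 GTPase genes. In the 21 type I response genes these counts were 10 and 4, and in the 9 MHC class II genes 1 and 1.

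The GTPases of interferon gamma, which attack the vacuoles of intracellular microbes, were all called: 18 of 18 higher, with a median log2 ratio of 4.65 against a background of 15.1% of genes. Iigp1 stood at 3.86 CPM in WT (3.62 to 4.11) against 372 in KO (370.1 to 374), a ratio of 6.36. Its promoter is not among those shown, which does not say that it lacks both elements. Tgtp1 had 32 and 4226 UMIs, Tgtp2 34 and 3880, and Gbp5 89 and 8827. Ifng itself had 1 UMI in WT and 453 in KO, and 2.13 CPM in KO_PBS. Ifnb1, a type I interferon, had too few UMIs for a ratio. Of the receptors, JAK, STAT, IRF and SOCS genes, 10 of 19 were higher and 0 lower (median 1.18). The feedback inhibitor Socs1 was at 3.64 and 29.3 CPM, and Irf8 at 2.32 and 45.0. Among the receptor chains Ifngr1 was higher at 41.3 and 110 CPM, while Ifngr2 (log2 ratio -0.18), Ifnar1 (0.42) and Jak1 (0.34) lay within 2-fold.

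Antiviral genes of the type I response were higher in 27 of 28 cases, with a lower median of 2.33. Ifit3 was at 7.36 and 113 CPM, Ifit1 at 15.5 and 208, and Rsad2 (viperin) at 7.24 and 89.5. The ubiquitin-like Isg15 stood high in WT already, at 256 CPM, and reached 988 in KO. All 12 MHC class II genes were higher, with a median of 4.70: the invariant chain Cd74 was at 65.8 and 2113 CPM, H2-Ab1 at 22.8 and 694, and their activator Ciita at 0.646 and 23.6. Of the class I and immunoproteasome genes 16 of 20 were higher (median 1.67). B2m, the light chain of class I, was at 118 and 1770 CPM, H2-K1 at 129 and 1206, the class I activator Nlrc5 at 0.962 and 67.6, and the peptide transporter Tap1 at 21.2 and 150. The proteasome activators Psme1 (0.52) and Psme2 (0.38) were within 2-fold.

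Chemokines, which guide leukocytes, were higher in 23 of 28 cases and lower in 1 (median 3.46). Cxcl9 (ENSMUSG00000029417), which interferon gamma induces and which attracts T cells, had 92 UMIs in WT, 0.358 CPM (0.289 to 0.439), and 71449 in KO, 203 CPM (201 to 204). It was 482-fold higher relative to the median gene, and 44.7% of KO barcodes held a UMI. Cxcl10, a ligand of the same receptor, was at 0.358 and 50.9 CPM, and that receptor, Cxcr3, at 0.0467 and 6.65. Ccl5 was at 1.41 and 219 CPM and the monocyte attractant Ccl8 at 4.06 and 481. Chemokines that organise lymphoid tissue were among them, with the B cell attractant Cxcl13 at 0.471 and 55.4 CPM and Ccl19 at 1.47 and 85.2. Receptors were higher in 16 of 20 cases (median 3.15), led by Cxcr3, Cxcr4 and Ccr7. Against this direction the mucosal chemokine Ccl28 had 1.07 CPM in WT but 0.349 in KO, a log2 ratio of -1.85.

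**Figure D2:**
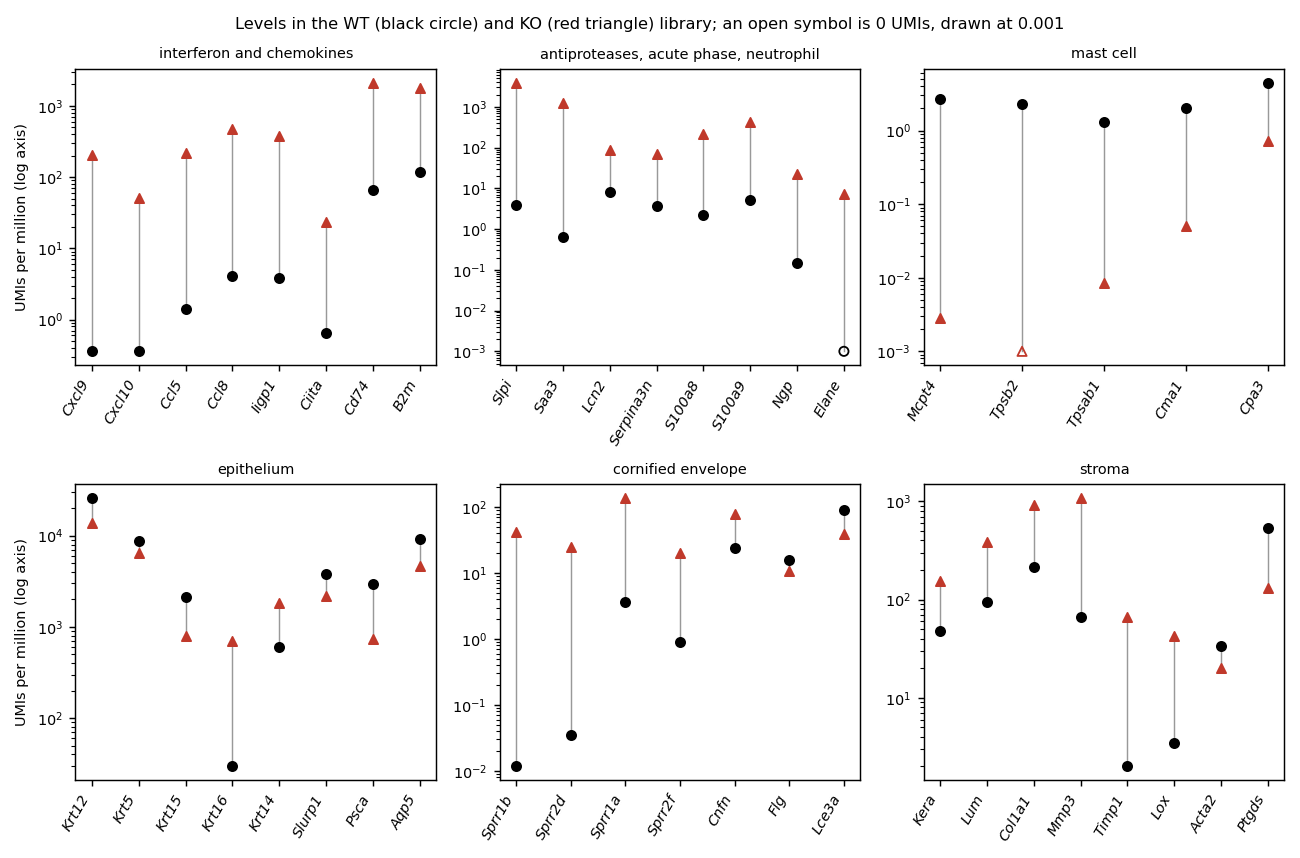
Levels of selected genes in CPM (log axis) in the WT (black circle) and KO (red triangle) library, 1 panel per group of genes, with open symbols for 0 UMIs. The symbols of Cxcl9, Slpi and Sprr1b lie far apart with KO on top, those of the mast cell genes far apart with WT on top, and those of Krt12, Krt5 and Aqp5 close together.

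T cell markers were all higher, 20 of 20 beside 15.1% of all genes, with a median of 4.79. For 1 of them, Cd8a, with at most 11 UMIs in WT, the call was fixed by the UMI minimum. Cd8a stood at 0.035 CPM in WT against 2.99 in KO, Cd4 at 0.202 and 7.32, and Cd3e at 0.366 and 16.4. The other T cell genes ranged down to a log2 ratio of 1.58 for the transcription factor Bcl11b. Cytotoxic and NK genes were higher in 14 of 14 (median 5.29), of which 4, Gzmb, Prf1, Eomes and Fasl, had at most 11 UMIs in WT and a call fixed by the UMI minimum: granzyme B (Gzmb) had 3 and 1580 UMIs, granzyme A (Gzma) was at 0.276 and 21.8 CPM and Nkg7 at 0.132 and 14.5. Helper, regulatory and checkpoint genes were higher in 17 of 19 (median 3.57), with Icos at 0.156 and 15.2 CPM, Pdcd1 at 0.121 and 5.63, and Foxp3, the factor of regulatory T cells, at 0.187 and 2.60. Il17a, a cytokine of helper T cells, had too few UMIs for a ratio.

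Myeloid markers showed the same direction, where of all genes 15.1% were higher and 13.1% lower. Macrophage and monocyte genes were higher in 18 of 20 (median 3.51), with the inflammatory monocyte marker Ly6c2 at 0.288 and 51.4 CPM, the scavenger receptor Msr1 at 0.596 and 24.98, and the complement gene C1qa, made by macrophages, at 20.3 and 323. The integrin chain Itgam (0.84) was within 2-fold. Of 14 dendritic and Langerhans cell markers 13 were higher (median 3.14), led by Ccr7, Itgax and Xcr1, and 1 was lower, Epcam, which epithelium also makes, at 231 and 127 CPM (-0.87 without centring). Of 15 neutrophil and mast cell markers with enough UMIs 10 were higher and 4 lower. The 10 higher ones were the neutrophil genes, a group formed after the values were seen. For 2 of them, Elane included, the call was fixed by the UMI minimum. Levels of the 10 summed to 8.58 CPM in WT, to 711 in KO and to 55.6 in KO_PBS. S100a9 was at 5.26 and 428 CPM and Ngp, a granule protein of neutrophil precursors, at 0.144 and 22.3. Neutrophil elastase (Elane) had 0 UMIs in WT against 2586 in KO, and KO_PBS had 12.

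Mast cell genes differed in the opposite direction. Mcpt4, Tpsb2 and Cma1 were the only members of the immune lists that were lower by more than 16-fold. Mcpt4, a chymase of connective tissue mast cells, had 689 UMIs in WT, 2.68 CPM (2.49 to 2.89), and 1 in KO, 0.00284 CPM (7.2e-05 to 0.0158). The tryptase Tpsb2 had 582 UMIs in WT and 0 in KO, at least 313-fold lower against a floor of 3 UMIs in the KO library. Its neighbour Tpsab1 had 332 and 3. Cma1 was at 2.05 and 0.0510 CPM, and the granule protease Cpa3 at 4.46 and 0.729. The KO_PBS library, also from knockout mice, held 633 UMIs of Mcpt4, 471 of Tpsb2 and 570 of Tpsab1. The receptor Kit, which melanocytes also carry, was at 122 and 85.9 CPM, a log2 ratio of -0.74. Of the 6 mast cell genes on the list, grouped after their values were seen, Ms4a2 had too few UMIs for a ratio and 4 of the other 5 were lower. The calls of Mcpt4, Tpsb2 and Cma1, with at most 22 UMIs in KO, were fixed by the UMI minimum.

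Secreted proteins of inflammation held some of the largest single differences outside the immunoglobulins. Slpi (ENSMUSG00000017002), an inhibitor of neutrophil elastase, had 3.87 CPM in WT (3.63 to 4.12) and reached 3918 in KO (3912 to 3925), with 18.01 in KO_PBS. The acute-phase protein Saa3 was at 0.650 and 1224 CPM, and at 58.0 in KO_PBS. Over acute-phase, antimicrobial and antiprotease genes 15 of 27 were higher and 4 lower (median 2.61). Serpina3g was at 0.195 and 29.2 CPM, chitinase-like Chil1 at 13.2 and 213, and lipocalin 2 (Lcn2) at 8.04 and 85.4. The lower ones were epithelial: the defensins Defb14 (9.50 and 2.35 CPM) and Defb1 (132 and 73.3), Csta1 (403 and 210) and Reg3g (1.17 and 0.658). Complement genes were higher in 17 of 21 and lower in 2 (median 2.95), with C3 at 4.51 and 141 CPM and Cfb at 2.41 and 67.2. The inhibitor Cd59a, which shields cells from lysis, was lower at 27.8 and 14.0. Without centring Cd59a (-0.99), Csta1 (-0.94), Defb1 (-0.85) and Reg3g (-0.83) were within 2-fold, and in the 25% of barcodes with the fewest UMIs the acute-phase median was 1.87.

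Cytokine families differed less than chemokines, and their counts stand beside 15.1% of all genes higher and 13.1% lower. Of the TNF superfamily 17 of 28 were higher and 0 lower (median 1.67, and 0.96 in the 25% of barcodes with the fewest UMIs), with Tnfsf14 and Cd40lg the highest and Tnf at 1.45 and 3.37 CPM, a ratio of 0.99. The interleukin-1 family and inflammasome list had 16 of 25 higher and 1 lower (median 1.57): Il1b was at 0.732 and 27.7 CPM and Nlrp3 at 0.128 and 3.07, while the receptor antagonist-like Il1f5 was at 5.01 and 0.856. For the IL-6, IL-17 and IL-22 axes 11 of 16 were higher (median 1.63), with Osm, Il24 and Il6 leading at levels below 1 CPM. Il17f, Il22 and Il20 had too few UMIs for a ratio. Pattern recognition and NF-kappaB genes were higher in 16 of 27 (median 1.23), among them Tlr9, with 2 and 107 UMIs, and Nod2. The NF-kappaB subunit Rela (0.56) and the adaptor Myd88 (0.80) were within 2-fold. Adhesion and homing genes were higher in 14 of 18 (median 2.79), with Itgal at 0.195 and 13.8 CPM, Icam1 at 1.78 and 19.8, and Vcam1 at 6.92 and 54.9.

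Over the 22 immune lists together, 340 of the 433 genes that had enough UMIs were higher (78.5%, beside 15.1% of all genes) and 13 were lower (3.00%, beside 13.1%). The median log2 ratio was 2.89, where the median of all genes is 0 by construction. For 23 of the 433, with at most 11 UMIs in WT, the higher call was fixed by the UMI minimum, as was the lower call of 4 with at most 22 in KO.

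**Figure D3:**
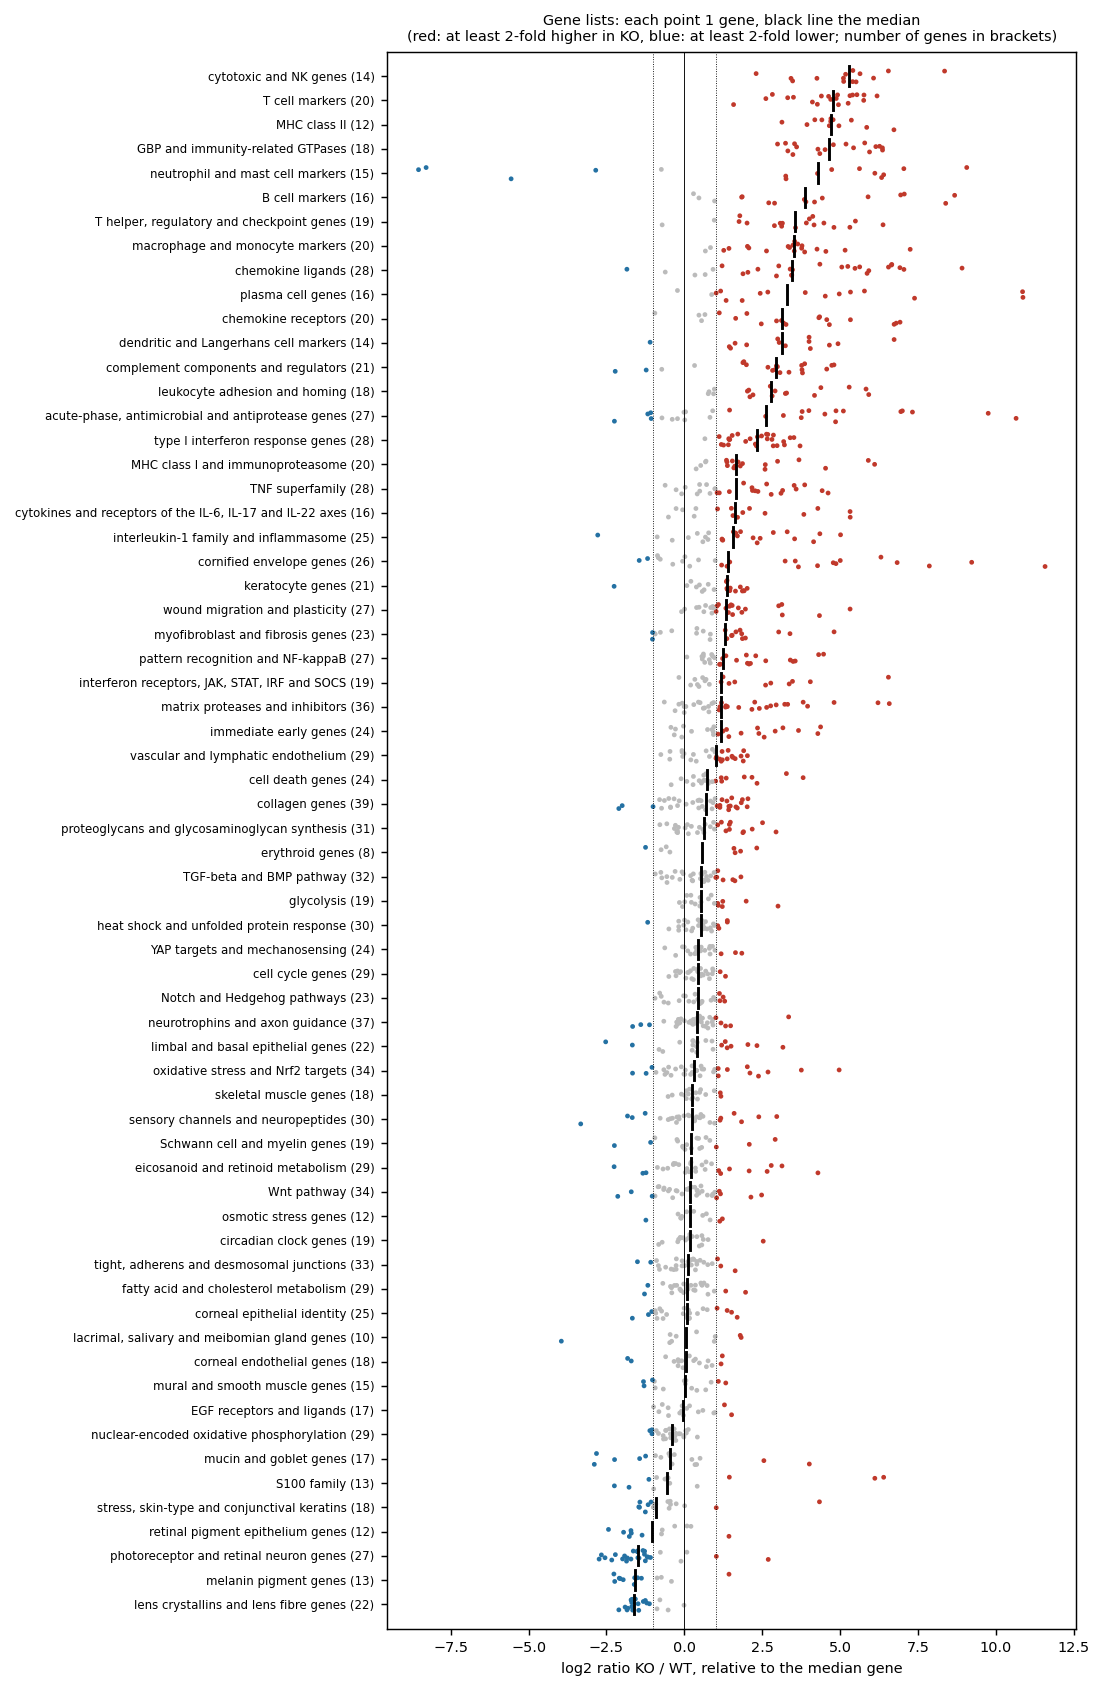
Log2 ratio KO over WT relative to the median gene for each gene of 64 lists (points, red at least 2-fold higher, blue at least 2-fold lower) with the list's median (black line), ordered by the median. Cytotoxic, T cell and MHC class II genes stand at the top with medians of 5.29, 4.79 and 4.70, and lens, melanin and photoreceptor genes at the bottom with -1.62, -1.60 and -1.49.

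Genes of corneal epithelial identity lay on both sides of the median gene, with a median log2 ratio of 0.08 and 4 of 25 higher and 3 lower. Krt12 stood at 26026 CPM in WT against 13743 in KO, 2.22-fold lower relative to the median gene. Krt15, a keratin of limbal basal cells, was lower at 2138 and 789, as was Slurp1, a secreted immunomodulatory peptide, at 3796 and 2157. The basal keratin Krt14 was higher at 607 and 1847 CPM, and Trp63, a regulator of basal cells, at 88.1 and 214. Pax6, the master regulator of eye development, was at 504 and 399 CPM (-0.57) and Aldh3a1, an abundant crystallin-like enzyme, at 5741 and 7132 (0.08). Of limbal and basal genes 7 of 22 were higher and 2 lower (median 0.40). The hemidesmosome and basement membrane genes Itga6 (71.8 and 210 CPM) and Lamb3 (18.4 and 49.4) were higher. Abcb5, a marker of limbal stem cells, had a ratio of -2.53 at 0.389 and 0.0794 CPM. Without centring Krt12 (-0.92) and Slurp1 (-0.82) were within 2-fold, as were Trp63 (0.90) and Lamb3 (0.98) in the 25% of barcodes with the most and the fewest UMIs.

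Keratins and cornification split by gene. Krt16, a keratin of wounded and hyperproliferative epithelium, had 29.6 CPM in WT and reached 701 in KO, while its partner Krt6a hardly differed, at 1442 and 1704. Among skin-type and conjunctival keratins 2 of 18 were higher and 6 lower (median -0.92), the lower ones including Krt19 (280 and 122 CPM), Krt13 (492 and 258, and -0.93 on the log2 scale without centring) and Krt8 (49.9 and 24.6). Small proline-rich proteins, which are crosslinked into the cornified envelope of the skin surface, were higher in all 11 cases with enough UMIs (median 5.26). For 7 of these, with at most 11 UMIs in WT, the call was fixed by the UMI minimum, and the 4 with more were Sprr1a, Sprr2a3, Sprr2f and Sprr2h. In the 25% of barcodes with the fewest UMIs Sprr3 was at -0.43 and Sprr2j-ps at 0.15. Sprr1b had 3 UMIs in WT and 14773 in KO, Sprr2d 9 and 8662, and Sprr1a was at 3.70 and 139 CPM. The near-identical Sprr2 copies are uncertain as single genes. Other envelope genes stood apart from these. Filaggrin (Flg, -0.77), loricrin (Lor, -0.86) and involucrin (Ivl, 0.17) were within 2-fold and Lce3a was lower (90.0 and 38.7 CPM), so the list as a whole had 15 of 26 higher and 2 lower (median 1.41).

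AP-1 (TGANTCA), the site of Fos and Jun dimers, occurred in 12 of 24 promoters of cornified envelope genes, against 6.69% of all promoters and 10.0% of those of genes called higher. The promoters of the 2 Sprr genes with the highest ratio, picked after their values were seen, are shown because they carry this element in capitals (RefSeq, GRCm38.p6, chr3:92438780-92439029 on the minus strand and chr3:92338890-92339139 on the plus strand).
Sprr1b: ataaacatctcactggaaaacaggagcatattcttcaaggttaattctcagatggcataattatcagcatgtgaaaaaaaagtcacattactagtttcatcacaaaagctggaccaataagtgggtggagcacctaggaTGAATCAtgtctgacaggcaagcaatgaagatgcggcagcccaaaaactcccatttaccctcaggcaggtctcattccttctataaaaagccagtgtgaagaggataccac
Sprr2d: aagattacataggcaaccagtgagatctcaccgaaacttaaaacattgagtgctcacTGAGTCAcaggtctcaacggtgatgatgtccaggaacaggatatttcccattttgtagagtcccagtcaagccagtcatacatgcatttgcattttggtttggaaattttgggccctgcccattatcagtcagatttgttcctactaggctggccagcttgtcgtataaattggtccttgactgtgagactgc

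In Sprr1b the match lies 111 to 105 bases before the start, and in Sprr2d 193 to 187. Genes of AP-1 and other early factors were higher in 13 of 24 cases and lower in 0 (median 1.16): Fosl1 was at 0.280 and 6.41 CPM, Atf3 at 3.87 and 40.7, Egr1 at 6.96 and 41.6, and Jun at 38.1 and 120. Fos (0.23), Junb (-0.43) and Ier3 (-0.29) were within 2-fold.

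Surface mucins Muc1 (0.50), Muc4 (0.24) and Muc16 (-1.24, at 0.646 and 0.320 CPM) and the goblet cell mucin Muc5ac (1.74 and 0.289 CPM) belonged to a list with 2 of 17 higher and 5 lower (median -0.46). Its most abundant member, Psca, a small surface protein of epithelia, was at 2939 and 730 CPM and at 2057 in KO_PBS. S100 calcium-binding proteins had 3 of 13 higher and 3 lower (median -0.57). S100a8 and S100a9, abundant in neutrophils, were the highest, and S100a6, at 20888 and 13220 CPM, lay within 2-fold. EGF receptors and ligands had 2 of 17 higher, Areg and Tgfa, and a median of -0.03. Of 33 junction genes 3 were higher, Cldn1 (3.46 and 12.6 CPM), Dsg3 and Cdh1, and 2 lower, Cldn3 and Cldn23 (median 0.13). Wound migration genes were higher in 17 of 27 (median 1.33), with tenascin C (Tnc) at 4.17 and 40.0 CPM, Plaur at 0.642 and 6.59, and Fn1 at 47.6 and 162. Over the 9 epithelial lists 27.0% of 189 genes were higher and 11.6% lower, beside 15.1% and 13.1% of all genes, so the share of lower genes was near the background. In the 25% of barcodes with the fewest UMIs Muc16 (-0.21) and Cdh1 (0.95) were within 2-fold and the mucin median was 0.22, and without centring Cldn23 (-0.85) was within 2-fold.

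Stress and metabolic genes lay near the median gene outside a few members. Aqp5, the water channel of the corneal epithelium, was lower at 9270 and 4623 CPM, while the osmotic stress factor Nfat5 was higher at 47.8 and 131 (list: 2 of 12 higher, 1 lower, median 0.19). Of oxidative stress and Nrf2 target genes 9 of 34 were higher and 3 lower (median 0.32). The NADPH oxidase subunits of phagocytes Cybb (1.98 and 72.7 CPM) and Cyba (27.5 and 208) were higher, the detoxifying Gsta4 (7367 and 3695), Gsta3 (277 and 103) and Sod2 (186 and 106) lower, and Nqo1, a typical Nrf2 target, had a log2 ratio of 0.01. Heat shock and unfolded protein response genes had 4 of 30 higher and 1 lower (median 0.53). Hspb1, the abundant small heat shock protein, was lower at 2147 and 1115 CPM. Glycolysis had 6 of 19 higher, with the lactate exporter Slc16a3 at 1.14 and 10.8 CPM (median 0.53). Nuclear-encoded oxidative phosphorylation had 0 of 29 higher and 3 lower, Uqcrb, Ndufb3 and Sdhb (median -0.41). Without centring these 3, Sod2 and Hspb1 were within 2-fold, at -0.95 to -0.81 on the log2 scale, and Gsta4 just within it.

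Lipid genes had 2 of 29 higher and 2 lower (median 0.10), with the cholesterol exporter Abca1 at 7.76 and 35.6 CPM. Eicosanoid and retinoid genes had 8 of 29 higher and 3 lower (median 0.21): Ptgs2, the inducible cyclooxygenase, was at 1.20 and 27.5 CPM, and prostaglandin D synthase (Ptgds) at 538 and 132. Cell cycle genes had 2 of 29 higher, Mki67 (18.8 and 55.2 CPM) and Cdkn2a (0.751 and 1.96), with a median of 0.43. Cell death genes had 9 of 24 higher and 0 lower (median 0.73), among them Pmaip1, the necroptosis effector Mlkl (2.29 and 13.6 CPM) and Fas (1.95 and 10.3). In the Wnt pathway 5 of 34 were higher and 3 lower (median 0.19), with the T cell factors Tcf7 and Lef1 highest and the ligand Wnt6 (12.2 and 4.41 CPM) and the inhibitor Dkk1 (3.61 and 0.964) lowest. Notch and Hedgehog genes had 4 of 23 higher, including Notch2 and Jag1 (median 0.43). The circadian list had 1 of 19 higher, Nfil3 (0.650 and 4.41 CPM), and the core clock genes Clock (0.13), Arntl (0.25) and Per2 (0.48) were within 2-fold. In the 25% of barcodes with the fewest UMIs Cdkn2a (0.66), Jag1 (0.94) and the other called Notch pathway genes Dll4 (0.50) and Notch4 (0.21) were within 2-fold. Over these 12 lists and that of the early factors above, 19.4% of 335 genes were higher and 4.78% lower, beside 15.1% and 13.1% of all genes.

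Stromal genes were called higher more often than lower. Keratocyte genes were higher in 12 of 21 cases and lower in 1 (median 1.37), the exception being Ptgds. Lumican (Lum), a collagen-spacing proteoglycan, was at 94.0 and 384 CPM, Col1a1 at 216 and 924, and Col1a2 at 244 and 1159. Collagens as a family had 15 of 39 higher and 3 lower (median 0.68). Fibrillar and type VI collagens were among the higher ones (Col3a1 at 60.4 and 223 CPM, Col6a2 at 33.0 and 126), basement membrane Col4a1 (0.43) and Col4a2 (0.54) and the endothelial Col8a2 (-0.33) were within 2-fold, and Col19a1 (1.21 and 0.332 CPM), Col22a1 and Col26a1 were lower (Col26a1 not without centring).

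Matrix proteases and their inhibitors had 20 of 36 genes higher and 0 lower (median 1.17, and 0.98 under another setting). Stromelysin Mmp3 stood at 65.9 CPM in WT (64.9 to 66.9) against 1088 in KO (1085 to 1091), the macrophage elastase Mmp12 at 0.393 and 34.3, the collagenase Mmp13 at 0.0779 and 8.73, and the inhibitor Timp1 at 2.01 and 65.8. Mmp9, the gelatinase measured in human tears for dry eye, was at 0.160 and 1.87 CPM. In KO_PBS Mmp3 was at 104 CPM. Proteoglycan genes were higher in 11 of 31 (median 0.63), led by the sulfotransferase Chst3 and by biglycan (Bgn, 42.7 and 285 CPM).

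Fibrosis genes had 12 of 23 higher and 2 lower (median 1.31). Among the higher ones were lysyl oxidase (Lox, 3.49 and 43.0 CPM), Tnc and Sparc (235 and 685). Smooth muscle actin (Acta2) was at 33.7 and 20.3 CPM (-0.96), Tagln at 17.1 and 10.5 (-0.94), and Myl9 (-1.02) and Cnn1 (-1.02) were the lower ones, at -0.79 without centring. Of 7 contractile genes, grouped after their values were seen, 3 were lower, and the summed levels came to 66.6, 40.2 and 614 CPM in WT, KO and KO_PBS. Of mural and smooth muscle genes 2 of 15 were higher, Mcam and Pdgfrb, and 3 lower, Lmod1, Myh11 and Cnn1 (median 0.03). In the 25% of barcodes with the fewest UMIs Mcam (0.93) and Pdgfrb (0.87) were within 2-fold. TGF-beta and BMP genes had 7 of 32 higher and 0 lower (median 0.54). Ltbp1, Skil and the receptor Tgfbr2 (16.7 and 57.5 CPM) were highest, and Tgfb1 (0.64) was within 2-fold. YAP and mechanosensing genes had 3 of 24 higher, Tead4, Axl and Zyx (median 0.44).

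Vessel genes were higher in 15 of 29 cases and lower in 0 (median 1.01): Pecam1 was at 3.52 and 16.8 CPM, Vegfa at 4.60 and 20.0, and the lymphatic receptor Lyve1 at 1.00 and 3.11. Cdh5 (0.90), Prox1 (0.21) and Cldn5 (-0.46) were within 2-fold. Corneal endothelial genes had 2 of 18 higher and 2 lower (median 0.06). The pump gene Slc4a11 (-0.20) was within 2-fold, and Car3 (204 and 73.5 CPM) and Cldn10 (64.2 and 21.3) were lower. Over the 10 stromal and vascular lists 36.4% of 253 genes were higher and 3.95% lower, beside 15.1% and 13.1% of all genes.

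Of 86 nerve-related genes 16.3% were higher and 10.5% lower, near the 15.1% and 13.1% of all genes, so these lists did not stand apart from the rest. Neurotrophin and axon guidance genes had 5 of 37 higher and 3 lower (median 0.42). Ciliary neurotrophic factor (Cntf, 13.1 and 4.85 CPM) and artemin (Artn, 5.25 and 2.34) were lower. Schwann cell and myelin genes had 3 of 19 higher and 2 lower, S100b and Mal (median 0.22; Mal at -0.85 without centring), and the glial factor Sox10 (-0.22) was within 2-fold. Sensory channels and neuropeptides had 6 of 30 higher and 4 lower (median 0.24). The higher members were the channels Trpv2 (0.864 and 7.93 CPM) and Trpv3 (0.347 and 1.23), the peptide genes Adm (2.19 and 9.18) and Calcb (9 and 76 UMIs), and the receptors Calcrl and Tacr1. The lower ones were Trpv6 and 3 channels of sensory neurons. The UMI minimum fixed the calls of Calcb and Scn10a. The cold sensor Trpm8 had 176 UMIs in WT and 89 in KO, the sodium channels Scn9a 178 and 81 and Scn10a 56 and 9, the last at 0.218 CPM (0.165 to 0.283) and 0.0255 (0.0117 to 0.0485). These 3 channels, with Trpv1 and Trpa1 grouped after their values were seen, summed to 1.83, 0.564 and 13.5 CPM in the 3 libraries. The neuropeptide precursor Tac1 (0.48) and Calca (0.50) were within 2-fold. Nuclei of corneal sensory neurons lie outside the eye, and the counts behind these channels are low: in the 25% of barcodes with the fewest UMIs the ratio of Scn9a was -0.26, and Trpv3 (0.97) and Calcrl were within 2-fold.

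Most genes listed for lens, melanin and photoreceptors were lower in KO. Over the 7 lists of other eye tissues, muscle, blood and glands 56 of 109 genes were lower (51.4%, beside 13.1% of all genes) and 12 higher. Lens genes were lower in 18 of 22 cases and higher in 0 (median -1.62), with the crystallin Cryab at 261 and 82.0 CPM and Cryba1 at 88.7 and 24.2. Melanin genes were lower in 9 of 13 and higher in 1, the transcription factor Mitf (median -1.60), with Dct at 338 and 95.1 CPM and Pmel at 80.7 and 20.1. Photoreceptor and retinal neuron genes were lower in 22 of 27 and higher in 2 (median -1.49). Retinal pigment epithelium genes were lower in 6 of 12 and higher in 1 (median -1.05, and -1.72 to -0.81 in other settings). In WT, KO and KO_PBS the lens list summed to 1050, 395 and 13551 CPM, and the melanin list to 613, 241 and 5281. The sums of the photoreceptor list (1057, 1076 and 6145) and of the pigment epithelium list (302, 306 and 915) were alike in WT and KO. Of the photoreceptor sum, Apoe and Glul, which many tissues make, took 516 and 242 CPM in WT and 562 and 301 in KO. All these sums were highest in KO_PBS. Ptgds, S100b, Cldn10, Car3, Trpm8, Scn9a, Scn10a and 3 of the contractile genes above were also lower in KO, and the part of neighbouring tissue in those results was not tested.

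Muscle and gland genes did not share that direction. Skeletal muscle genes had 2 of 18 higher and 0 lower (median 0.25), and lacrimal, salivary and meibomian gland genes 2 of 10 higher and 1 lower, the salivary Prb1 (6.12 and 0.465 CPM; median 0.06, and -0.30 to 1.00 in other settings). Hemoglobin genes were higher, with Hba-a1 at 16.8 and 69.0 CPM and Hbb-bs at 29.6 and 108, in a list with 4 of 8 higher and 1 lower (median 0.56, and up to 1.63 in other settings, which leave out some members). Copies of Hba and Hbb are near-identical and uncertain as single genes.

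The lowest ratios over all called genes that reached 20 CPM came from unlike kinds of genes. Cyp2a5, a cytochrome P450, stood at the end with 23.5 CPM in WT and 3.23 in KO (-3.09). Il1rapl1, a synaptic adhesion protein, followed at 1251 CPM (1247 to 1256) and 204 (202 to 205), and at 130 in KO_PBS. It had a UMI in 94.2% of WT barcodes and 46.8% of KO barcodes. Fxyd4, a regulator of the sodium pump, was at 53.9 and 10.8 CPM, the skin protease Asprv1 at 4295 and 1282, and the chaperone cofactor Bag2 at 41.6 and 12.2. Gngt1 and Pde6g (phototransduction), Mlana and Pmel (pigment), and Cryba1 (lens) were also among the 15 lowest.

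Genes were also grouped by the leading letters of their symbols, 324 families with at least 8 genes that had enough UMIs. The counts below stand beside 15.1% of all genes called higher. Beside the immunoglobulin and Sprr families, the highest medians were those of Gbp (10 of 10 higher, 4.32), the chemokine receptors Ccr (10 of 10, 4.29), the lymphocyte GTPases Gimap (8 of 9, 4.23), the CD20-like Ms4a genes (11 of 13, 4.14) and the NK receptors Klra (9 of 9, 4.02). Slfn (7 of 8, 3.46), H2 (24 of 25, 3.11), the sensors Tlr (11 of 12, 2.78), Apol (8 of 10, 2.39) and the kallikreins Klk (9 of 11, 1.98) were also among the families with high medians, with others between them. The UMI minimum fixed the higher call of 4 genes each in Klra, Apol and Klk, of 2 each in Ccr and Gimap, and of 1 each in Ms4a, Slfn, H2 and Tlr. Kallikreins are serine proteases, several of which act in shedding of the outer epithelium. Interleukins and their receptors (symbols starting with Il) were higher in 43 of 68 cases, with 5 of these calls fixed by the UMI minimum. Their summed level was nevertheless 1721 CPM in WT against 1067 in KO, of which Il1rapl1 made up 1251 and 204.

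Families at the low end differed less. The medians were -0.98 for vomeronasal receptors (Vmn, 3 of 32 higher and 16 lower, with 7 of the lower calls fixed by the UMI minimum), -0.88 for sulfotransferases (Sult, 4 of 10 lower), -0.73 for keratins (Krt, 5 of 36 higher and 13 lower) and -0.70 for claudins (Cldn, 3 of 18 higher and 7 lower). Genes of motile cilia were at -0.69 (Cfap, 9 of 31 lower) and -0.63 (Dnah, 5 of 16 lower), with 0 higher in either. Of all genes 13.1% were lower, and 32.5% of the 20% with the lowest level, a share near those of Cfap and Dnah. Sums over the keratin family were 41638, 27188 and 13002 CPM in these libraries.

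**Figure D4:**
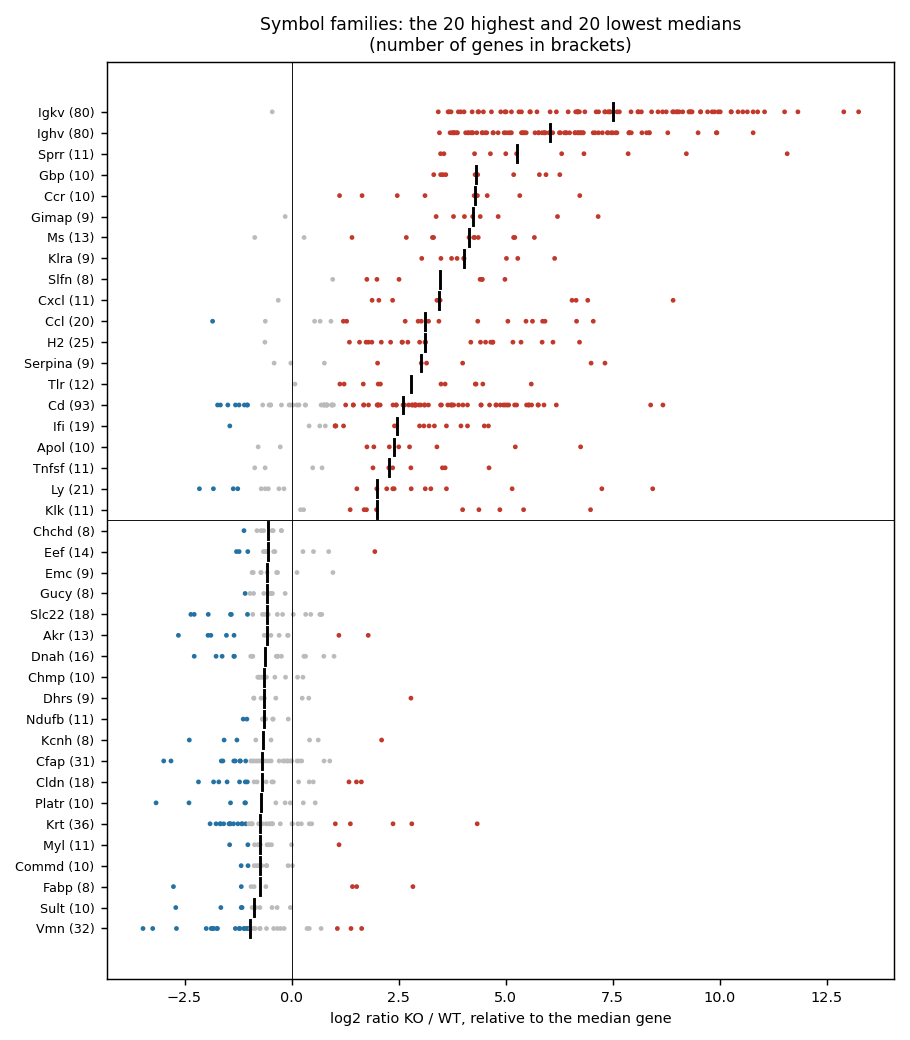
Log2 ratio KO over WT relative to the median gene for genes of the 20 symbol families with the highest and the 20 with the lowest median (points, red at least 2-fold higher, blue at least 2-fold lower, black line the median, n in brackets). Medians reach 7.52 for Igkv at the top and only -0.98 for Vmn at the bottom.

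Outside immunoglobulin and T cell receptor genes, 52 genes had at least 50 UMIs in KO and at most 3 in WT. Among those with the highest level in KO were Sprr1b, the interferon-induced ubiquitin-like Ubd (2 and 5997 UMIs), Elane and Gzmb. The reverse held for 6 genes: Mcpt4, Tpsb2, Tpsab1, the secretoglobin Scgb2b2 (95 and 3 UMIs), the oxidase Nox3 (69 and 3) and Gm49912 (56 and 3). In KO_PBS Nox3 had 253 UMIs. These limits were raw UMIs, and the KO library held more of them, so both were easier to meet for the 52 genes than for the 6. In CPM, 3 UMIs were 0.0117 in WT and 0.0085 in KO.

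Ratios also varied with properties of the genes. In the 20% of genes with the lowest level 14.4% were higher and 32.5% lower (median -0.49), against 10.6% and 5.27% in the 20% with the highest level (0.02). Protein-coding genes were higher in 15.2% and lower in 9.39% of cases, long intergenic RNAs in 12.1% and 36.8%, and antisense genes in 6.83% and 24.1%. Noncoding classes did not share 1 direction: of 173 sense intronic genes 50.9% were higher and 0.578% lower (median 1.01). From the 20% of genes with the shortest span to the 20% with the longest the median went from -0.15 to 0.16. The called shares ran the other way, with 21.1% higher and 12.6% lower among the shortest and 14.2% and 18.1% among the longest.

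List medians were also computed in barcodes of high and low depth. In the 25% of barcodes with the most UMIs (median 3732 in WT and 4741 in KO) the median was 4.78 for T cell markers, 4.65 for MHC class II genes and -1.58 for lens genes. In the 25% with the fewest (1571 and 2001) these were 4.53, 4.55 and -1.78. The cytotoxic list had 5.10 and 4.65, and skeletal muscle -0.03 and 0.62. A gene needed 50 UMIs within those barcodes, so some lists held fewer genes than over all barcodes.

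**Figure D5:**
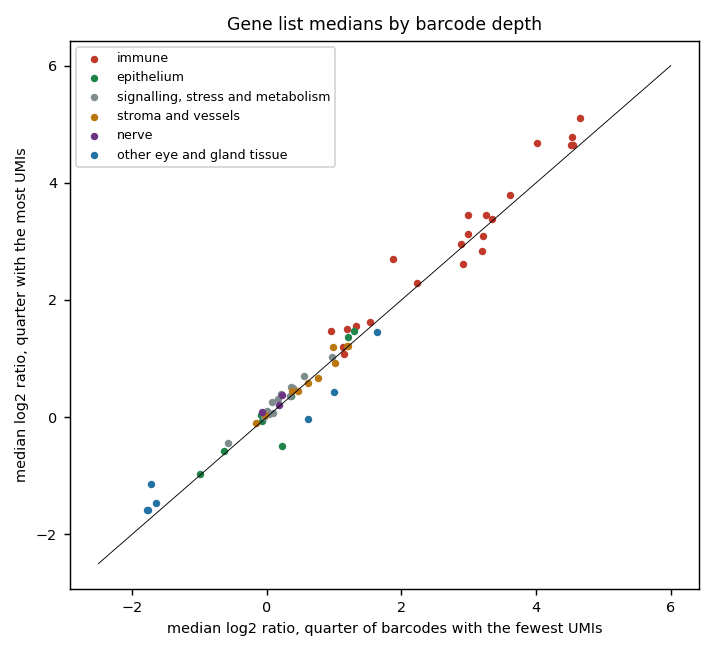
Median log2 ratio KO over WT of each of 64 gene lists, computed from the 25% of barcodes with the fewest UMIs (x axis) and the 25% with the most (y axis), coloured by theme, with the line of equality. Immune lists lie at the upper right, some of them above the line such as the cytotoxic list (4.65 and 5.10), and lens, melanin and photoreceptor lists at the lower left.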

How the data were processed

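The values the authors deposited are raw UMI counts, whole numbers for each gene in each barcode. They were made with Cell Ranger 7.0.1 and the build mm10, per the submitters' processing notes. Which annotation was used, whether reads in introns were counted and how barcodes were chosen is not given in the sources used here. WT and KO list the same 32285 genes. KO_PBS lists 31053, of which 30406 have an ID in common with them, and a gene without such an ID has no KO_PBS value.

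Counts were summed over all barcodes, without doublet removal or cell type calls, and scaled to CPM (python 3.11.15, pandas 2.3.3, numpy 2.4.6, matplotlib 3.10.9; intervals with scipy 1.17.1). A gene needed at least 50 UMIs over both libraries. Counts below 3 were set to 3 in ratios, ratios were centred on the median gene, and a gene was called at 2-fold or more. This is a rule of size; with 1 library per group no p-value was computed. Poisson and Clopper-Pearson intervals (95%) cover counting error only. The calls were tested on simulated Poisson counts in which genes with at least 200 UMIs in WT were raised or lowered 4-fold. That simulation did not cover 2-fold differences, genes with fewer UMIs or the spread between animals, so it gives no error rate for the calls here. Alternatives used the TMM factor of edgeR 4.0.16 (R 4.3.3), no centring, other minimums, folds and barcodes, and are given in the closing section.

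Coordinates are from GENCODE on GRCm38 and promoters from RefSeq on GRCm38.p6, of which 250 bases before the start were searched. Of the listed gene IDs 32235 are in GENCODE. The comparison, the gene lists and the naming rule were chosen with earlier results of these data known. The rule named the 15 highest and 15 lowest ratios among called genes with at least 20 CPM, Aire, and in each list the 4 highest, the 4 lowest and the 2 most abundant members. Other named list members, the groups of mast cell, neutrophil, contractile and sensory channel genes, the Sprr promoters and the genes plotted singly were picked after their values were seen. Near-identical copies (immunoglobulin, Tgtp, Sprr2, H2-Q, Saa1 and Saa2, Hba, Hbb, gamma crystallins) and genes that overlap others are uncertain where counting could split reads.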

Additional observations from a re-analysis of the deposited data

How the results depend on the processing

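The number of genes higher in KO than in WT was 3231 and became 5596 at 1.5-fold and 1469 at 4-fold. The number of genes lower in KO than in WT was 2805 and became 1698 in the 25% of barcodes with the fewest UMIs, 1852 with at least 200 UMIs per gene, 4644 with at least 10, 5416 at 1.5-fold and 602 at 4-fold. With at least 10 UMIs per gene 4213 genes were higher, fewer than were lower. Without centring 4391 genes were higher and 1911 lower, and with the TMM factor 3900 and 2223. Leaving out shared barcodes gave 3199 and 2778, and non-overlapping Poisson intervals gave 3207 and 2782.

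Of 64 list medians, 55 kept their sign in the 9 other settings. The 9 that did not were corneal identity, mucins, EGF, osmotic stress, corneal endothelium, mural cells, Schwann cells, skeletal muscle and glands. Medians of at least 2-fold numbered 33, and 28 remained so in those settings. TNF superfamily, immediate early, protease, vessel and retinal pigment epithelium lists did not, with values nearest 0 of 0.96, 0.98, 0.98, 0.92 and -0.81. Of 417 named genes that were called, 416 kept their sign in 7 settings and 356 stayed at 2-fold or more. The other 61 included 28 lower genes within 2-fold without centring, and 32 genes within 2-fold in the 25% of barcodes with the fewest UMIs. The exception was Sprr3, at 3.56 over all barcodes and -0.43 in the 25% of barcodes with the fewest UMIs, where the floor of 3 UMIs sets the ratio. No centring, the TMM factor and leaving out immunoglobulin, mitochondrial and rRNA-like genes shift all ratios alike, by at most 0.23. A call at 2-fold or more could not change sign there. The barcode filter and leaving out shared barcodes removed few barcodes, so the count of kept signs was largely set in advance.

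No paired analysis was possible because each group had 1 library. Depth limits genes with few UMIs, such as Aire, Il17a and Scn10a, and pooling of 5 mice hides the spread between animals.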
